A study of Homo sapiens with 6 samples.

Results

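Genes of mitosis and of the passage from G2 phase into mitosis were followed in 2 lines of Ewing tumor cells treated with siRNA against STEAP1. The set holds 39 genes named by symbol, and 38 of them were measured, among 18417 genes in all. Each measured gene was read from the probe set that the platform annotation assigns to that symbol alone. BIRC5 had 2 such probe sets, of which the one with the higher mean was used. CENPA, the centromeric histone H3 variant, had only a probe set shared with another symbol, and no value is given for it. A673 and SK-N-MC are established lines of Ewing tumor, a bone and soft tissue cancer driven by the EWSR1-FLI1 fusion. Each line gave 1 array of cells with a control siRNA, 1 with STEAP1 siRNA 2 and 1 with STEAP1 siRNA 3. All were at 5 nM siRNA for 48 h, with RNA taken at 80% confluency. The control label of A673 carries the number 2 and that of SK-N-MC carries none. What this number marks for a control is not stated, and the labels do not describe the control siRNA further. Whether the arrays of a line stem from separate cultures is not stated, and p-values cover no more than the spread between these arrays. All 38 genes had a mean log2 intensity of at least 4 (40.3% of all genes do) and 31 of at least 6 (13.0% do). With 1 control array per line, the control has no measured spread.

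Entry into mitosis is driven by cyclin A and cyclin B bound to CDK1, and exit by the anaphase-promoting complex, which marks cyclin B and securin for destruction. The genes of this programme are switched off in resting cells by the DREAM complex and switched on late in the cycle by MuvB with B-MYB and FOXM1, so their transcripts accumulate together in G2 phase and mitosis. In a growing culture their level is commonly read as a mark of proliferation. In bulk samples a smaller share of cells in G2 phase and less RNA per such cell cannot be told apart.

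The MuvB complex binds the cell cycle homology region, with the core TTTGAA or TTTAAA, and the factor NF-Y binds the sequence CCAAT, often upstream of it. Promoters from RefSeq (GRCh38.p14, 250 bases before to 50 bases after the annotated start) were found for 32 of the 38 measured genes and searched on both strands. None was found for TTK, UBE2C, AURKA, TPX2, BIRC5 and FOXM1. A homology region core lay in 26 of the 32 promoters (81.2%), beside 24.0% of all 35116 promoters of that length. CCAAT lay in 24 of 32 (75%), beside 34.6% of all, and both were present in 20 of 32 (62.5%), beside 9.27% of all. Within the 50 bases before the start, a window chosen after the positions were seen, 16 of 32 held the core, beside 4.79% of all. In 5 promoters, those of CCNB2, CKS2, MKI67, PLK1 and PTTG1, a core began at position -29 from the start, and in CCNB1, which encodes cyclin B1, it began at -30. E2F motifs (TTTCCCGC, TTTGGCGC, TTTGCCGC or TTTCGCGC) lay in 2 of 32, beside 3.31% of all. The promoters of CDC25B and CDC25C held neither core nor CCAAT in this window. A match is a description of the letters and shows no binding in these cells.

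The 120 bases directly before the start are shown for 8 genes, written 5′ to 3′ on the strand of the gene, with cores and CCAAT matches of either strand in capitals. MKI67 (chr10:128126424-128126543, minus strand), KIF4A (chrX:70289984-70290103, plus strand) and KIF20A (chr5:138178992-138179111, plus strand) are shown because they stood higher with siRNA 2 than with siRNA 3 in both lines and hold a core in this stretch. AURKB, which had the second largest such difference, is not shown, since its promoter holds no core and its only CCAAT match, at position -153, lies outside the stretch. PRC1 (chr15:90994536-90994655, minus strand), HMMR (chr5:163460512-163460631, plus strand) and TOP2A (chr17:40417897-40418016, minus strand) are shown because they differed between the lines. UBE2C, which differed most between the lines, had no promoter to show. NUF2, which differed more than PRC1, is not shown, and its only match is a core at position 16, outside the stretch. CCNB1 (chr5:69167030-69167149, plus strand) and PLK1 (chr16:23678769-23678888, plus strand) are shown as usual markers of the class.
MKI67: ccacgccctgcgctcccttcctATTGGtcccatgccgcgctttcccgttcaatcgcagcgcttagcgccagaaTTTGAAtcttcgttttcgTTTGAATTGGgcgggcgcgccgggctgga
KIF4A: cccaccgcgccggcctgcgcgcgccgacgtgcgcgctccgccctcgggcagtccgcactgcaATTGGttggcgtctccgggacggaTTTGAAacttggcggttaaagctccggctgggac
KIF20A: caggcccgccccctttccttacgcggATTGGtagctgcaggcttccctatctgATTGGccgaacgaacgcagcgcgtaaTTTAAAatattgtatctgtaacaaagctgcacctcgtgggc
PRC1: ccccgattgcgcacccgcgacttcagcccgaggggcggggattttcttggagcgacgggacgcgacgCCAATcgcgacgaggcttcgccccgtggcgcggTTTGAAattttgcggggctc
HMMR: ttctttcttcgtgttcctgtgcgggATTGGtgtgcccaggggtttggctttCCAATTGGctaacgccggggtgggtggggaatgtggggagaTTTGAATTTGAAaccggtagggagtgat
TOP2A: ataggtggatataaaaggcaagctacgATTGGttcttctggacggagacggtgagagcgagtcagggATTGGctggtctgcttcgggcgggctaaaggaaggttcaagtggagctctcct
CCNB1: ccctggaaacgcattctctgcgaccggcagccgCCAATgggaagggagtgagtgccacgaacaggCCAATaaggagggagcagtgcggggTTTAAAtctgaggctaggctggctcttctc
PLK1: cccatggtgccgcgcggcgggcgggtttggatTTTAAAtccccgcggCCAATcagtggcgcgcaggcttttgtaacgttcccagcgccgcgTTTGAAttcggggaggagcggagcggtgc

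In these stretches PRC1 and KIF4A each hold 1 core and 1 CCAAT match, HMMR holds 2 cores side by side, and TOP2A holds 2 CCAAT matches and no core. The cores of TOP2A lie farther upstream in its window.

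**Figure D1:**
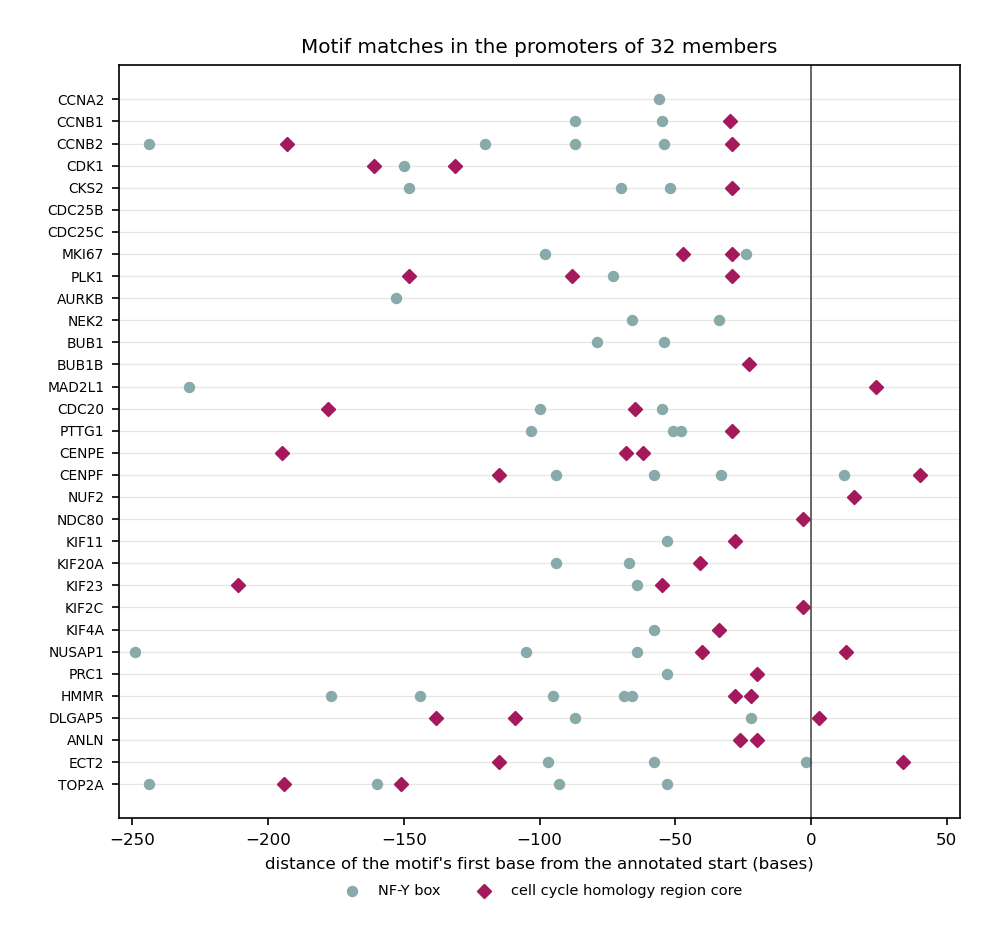
Positions of the NF-Y box (circles) and of the cell cycle homology region core (diamonds) in the RefSeq promoters of 32 genes, as distance in bases from the annotated start (vertical line at 0). Cores lie within the 50 bases before the start in 16 of the 32 promoters.

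Where 3 values of a line are given in a row, they are log2 intensities for control, siRNA 2 and siRNA 3. STEAP1 itself read 7.15, 4.17 and 4.73 in SK-N-MC. In A673 it read 6.23, 4.53 and 4.59. The difference across both lines was -2.18 (SE 0.24), lower in 4 of 4 siRNA arrays, with a limma adjusted p of 0.293. Array medians lay between 6.01 and 6.48 intensity units. The Ewing tumor marker CD99 lay at 9.40 to 10.25 in all 6 arrays. It is 1 of 9 measured genes of an Ewing marker list that includes STEAP1. Of these 9, 4 were called higher in A673 and 0 lower, with line differences from -0.23 to 2.49. All 5 measured leukocyte genes, 5 epithelial and 7 fibroblast genes were read beside that list. Of the leukocyte genes, PTPRC, CD3E, CD14 and LYZ lay at 0.90 to 2.15 and CD68 at 3.41 to 4.23. Of the epithelial genes, CDH1 and EPCAM lay at 1.33 to 2.26 and KRT18 at 7.53 to 8.57. Of the fibroblast genes, LUM lay at 1.23 to 1.52 and COL1A2 at 6.74 to 8.02, and 4 of the 7 were called lower in A673. None of these genes was called with silencing, and their part in the results was not tested. CDKN2A, a cell cycle inhibitor gene, ranged from 2.38 to 2.65 in A673 against 6.05 to 6.58 in SK-N-MC. The 9 measured interferon-induced genes were high in the SK-N-MC control array and, less so, in SK-N-MC with siRNA 3. Their median was 6.07 in the SK-N-MC control, 2.43 with siRNA 2 and 4.75 with siRNA 3 there, and 1.80 to 1.98 in A673. All results for SK-N-MC silencing rest on that control array, and the part of its interferon state in them was not tested.

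The first comparison asks whether the mitotic programme followed the silencing of STEAP1. None of the 38 genes was called across both lines by limma, and none had an unadjusted p under 0.05. Over all genes 0% were called and 4.63% had an unadjusted p under 0.05. The median difference of the 38 genes was 0.067 on the log2 scale, beside -0.0050 over all genes, and 25 of 38 lay above 0, where 48.5% of all genes and 46.1% of genes with a mean log2 of 6 or more did. The median lay between 0.022 and 0.069 with single arrays left out, the lowest without SK-N-MC siRNA 2, and leaving out the A673 control or A673 siRNA 2 gave 0.024 or 0.033. Each gene's 95% confidence interval included 0 and lay within 2-fold in either direction, with outer bounds of -0.60 (AURKA) and 0.62 (MKI67). Smaller differences cannot be told from 0 with these arrays, and 20 of the 38 differences turned sign when 1 array or another was left out.

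Of the 38 genes, 4 lay above the control array of their line in all 4 siRNA arrays, which is 10.5% beside a background of 10.6%. They were CCNB1, BUB1B, CENPF and BIRC5. Another 3 lay below it in all 4, namely CDC25C, HMMR and ANLN, or 7.89% beside 11.2%. Neither share exceeds its background. BUB1B, a kinase of the spindle checkpoint, had the largest positive difference at 0.24 (SE 0.13). It read 6.84, 6.98 and 7.24 in SK-N-MC, against 6.93, 7.25 and 7.05 in A673. BIRC5, the chromosome passenger protein survivin, differed by 0.22 (SE 0.14), from 6.26 to 6.50 and 6.30 in SK-N-MC, and from 6.39 to 6.52 and 6.85 in A673. Its other probe set lay at 1.84 to 2.02 in all 6 arrays. CCNB1, cyclin B1, differed by 0.18 (SE 0.12), with 8.39, 8.40 and 8.50 in SK-N-MC, against 8.63, 8.98 and 8.89 in A673. PTTG1, the securin that holds separase inactive, also differed by 0.18 (SE 0.14), and near-identical copies of this gene make its values uncertain.

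On the other side, HMMR, a hyaluronan receptor that also acts at spindle poles, differed by -0.21 (SE 0.11). It lay at 3.80, 3.52 and 3.59 in SK-N-MC, against 4.61, 4.47 and 4.41 in A673. In both lines the 2 siRNA arrays were below the control, by at most 0.28. AURKA, the kinase of the centrosome, differed by -0.22 (SE 0.17), with 6.68, 6.44 and 6.00 in SK-N-MC, while A673 read 6.35, 6.40 and 6.34. AURKA turned to 0.024 when the control of SK-N-MC was left out, which leaves the response of A673 alone. FOXM1, the transcription factor of the programme, differed by -0.11 (SE 0.12) and turned to 0.0079 likewise. Its values were 6.41, 6.10 and 6.27 in SK-N-MC, against 6.87, 6.97 and 6.80 in A673. CDC25C, a phosphatase that activates CDK1, differed by -0.13 (SE 0.11). The adjusted p was 0.989 for each of the 8 genes whose difference is given so far.

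Cyclin and CDK genes stood on both sides of 0. CDK1 lay at 5.86, 6.09 and 5.85 in SK-N-MC, against 6.34, 6.35 and 6.37 in A673. CCNA2, cyclin A2, differed by -0.036 (SE 0.11), and by 0.027 with the control of SK-N-MC left out, that is in A673 alone. PLK1, the polo-like kinase that triggers entry and spindle assembly, lay at 8.01, 8.04 and 7.99 in SK-N-MC, against 8.13, 8.50 and 8.36 in A673. TOP2A, which untangles sister DNA, lay at 7.93, 7.81 and 7.65 in SK-N-MC, against 6.52, 6.75 and 6.50 in A673. These markers therefore gave no common direction over the 4 siRNA arrays.

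**Figure D2:**
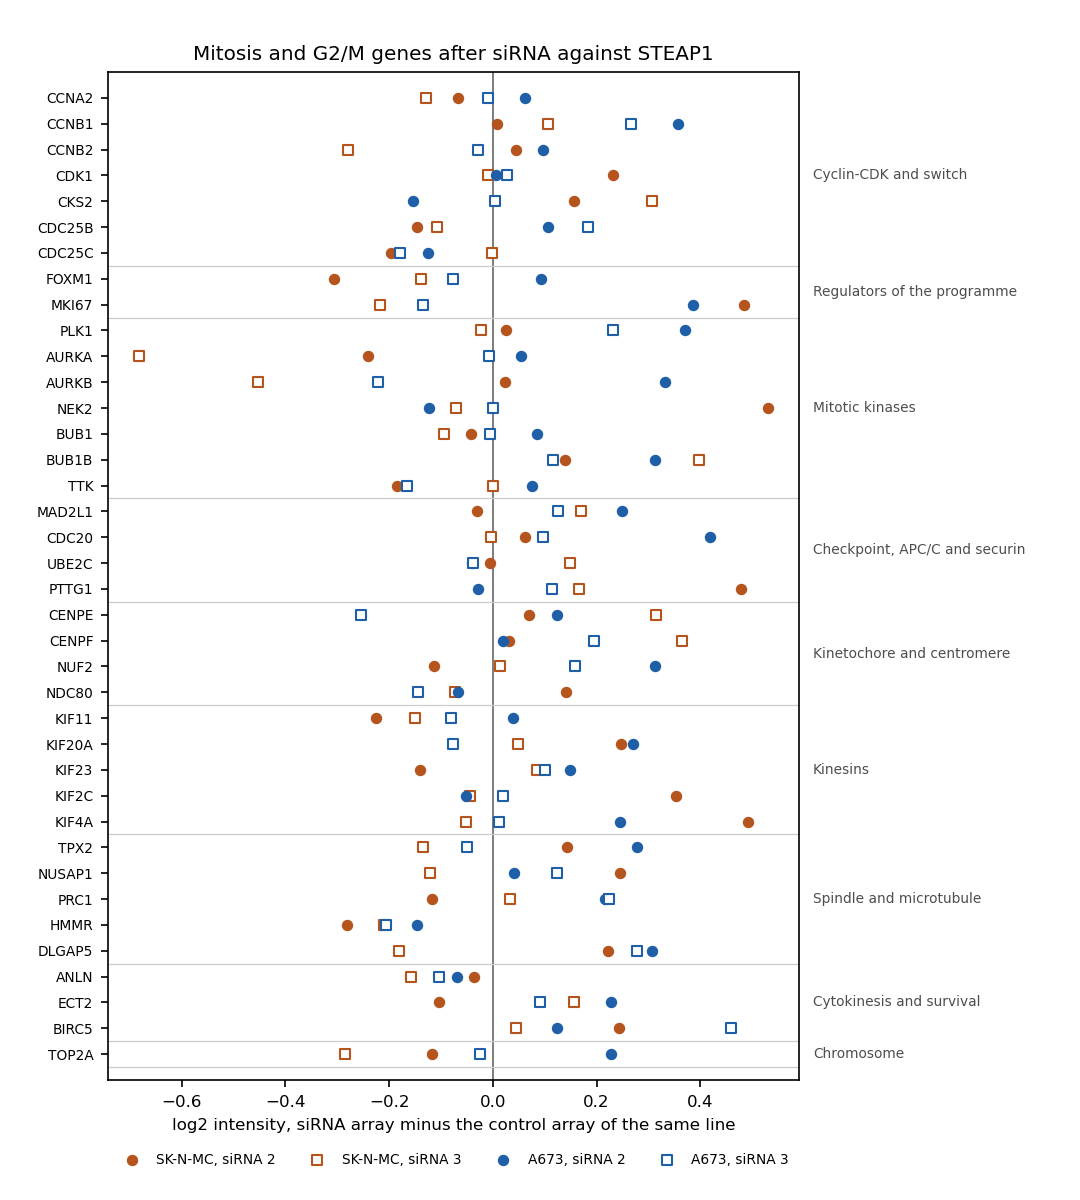
Log2 intensity of each siRNA array minus the control array of the same line for 38 mitosis and G2/M genes, ordered by role (circles siRNA 2, squares siRNA 3, orange SK-N-MC, blue A673). All values lie between -0.68 (AURKA, SK-N-MC siRNA 3) and 0.53 (NEK2, SK-N-MC siRNA 2), and the 2 siRNA arrays of a line share 1 control array.

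Within A673 the median difference was 0.069, and 27 of 38 genes lay above 0, beside 49.5% of all genes and 60.7% of the bright genes, those with a mean log2 of 6 or more. Without siRNA 2 the median was 0.0029, with 20 of 38 genes above 0, and without siRNA 3 it was 0.10. In both siRNA arrays 16 of 38 genes (42.1%) lay above the control array, beside 32.3% of all genes and 41.9% of 2391 bright genes. Only 31 of the 38 belong to that bright class. The 5 genes below the control array in both (13.2%, beside 33.1% and 21.7%) were CDC25C, UBE2C, NDC80, HMMR and ANLN. The median over the 2391 bright genes was 0.040 and over the 31 bright members 0.10. Of these 31, 26 (83.9%) lay above 0 and 5 below, beside the 60.7% of bright genes above 0. CCNB1 (0.31, SE 0.16), PLK1 (0.30, SE 0.17), DLGAP5 (0.29, SE 0.21), a spindle assembly protein, and BIRC5 (0.29, SE 0.20) had the largest values. HMMR (-0.18, SE 0.16), CDC25C (-0.15), NDC80 (-0.11), a kinetochore subunit that holds microtubules, and ANLN (-0.087), the cleavage furrow protein anillin, had the lowest. No gene of the set was called by limma (adjusted p 1.00) or had an unadjusted p under 0.05, where 0% and 3.35% of all genes did.

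Within SK-N-MC the median was 0.024, with 22 of 38 genes above 0, beside 49.1% of all genes and 36.3% of bright genes. The median turned to -0.034 without siRNA 2 and stood at 0.099 after quantile normalization. In both siRNA arrays 8 of 38 genes (21.1%, beside 31.4% of all and 21.0% of bright genes) lay above the control and 11 (28.9%, beside 32.7% and 41.0%) below it. PTTG1 (0.32, SE 0.20), BUB1B (0.27, SE 0.19), CKS2 (0.23), the small CDK-binding subunit, and NEK2 (0.23), a centrosome kinase, had the largest values. NEK2 rested on 1 array, at 4.59 with siRNA 2 beside 4.06 in the control and 3.99 with siRNA 3, and stood at -0.071 without siRNA 2. AURKA (-0.46, SE 0.22), HMMR (-0.24), FOXM1 (-0.22) and AURKB (-0.22), the kinase of the chromosome passenger complex, had the lowest. AURKB stood at 0.023 without siRNA 3. None of the 38 genes was called or had an unadjusted p under 0.05. Over all genes 1 was called (0.00543%), lower, and 5.12% had an unadjusted p under 0.05. The called gene is 1 of the 9 measured interferon-induced genes. The interferon-induced genes had a median of -3.28 with siRNA 2 and -1.98 with siRNA 3 in these arrays.

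The difference between the responses of the lines, A673 minus SK-N-MC, was tested directly by limma, which called 0 of the 38 genes and 0% of all genes, with no unadjusted p under 0.05 in the set and 3.86% over all genes. The difference lay above 0 for 24 of 38 genes, beside 51.0% of all and 70.7% of bright genes. The median of the 38 was 0.11, beside 0.10 over the 2391 bright genes, and it stood at -0.0012 after quantile normalization. With single arrays left out it ranged from 0.048, without A673 siRNA 2, to 0.17, without A673 siRNA 3. AURKA had the largest positive difference of responses, at 0.48 (SE 0.31), and CKS2 the largest negative one, at -0.31.

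The next comparison asks whether the 2 siRNAs left different levels of mitotic transcripts. With every array kept, its differences use no control array. With an siRNA array left out, the control arrays enter the estimate. Several genes lay higher with siRNA 2 than with siRNA 3 in both lines, led by MKI67, which encodes the proliferation marker Ki-67 on mitotic chromosomes. MKI67 read 7.06, 7.55 and 6.85 in SK-N-MC. In A673 it read 7.55, 7.94 and 7.42. In both lines the siRNA 2 array was thus above the control and the siRNA 3 array below it. The difference was 0.61 (SE 0.14, 95% confidence interval 0.30 to 0.92), at 0.70 in SK-N-MC, against 0.52 in A673, with a limma adjusted p of 0.572.

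AURKB came next, at 0.51 (SE 0.14), with 6.22, 6.24 and 5.77 in SK-N-MC, against 6.93, 7.26 and 6.71 in A673 for control, siRNA 2 and siRNA 3. In SK-N-MC its siRNA 2 array was level with the control, and in A673 it was above it. KIF4A, a chromosome-bound kinesin, differed by 0.39 (SE 0.14), with 5.88, 6.37 and 5.83 in SK-N-MC, against 6.09, 6.33 and 6.10 in A673. With siRNA 3 KIF4A lay within 0.052 of the control in both lines, and a close copy of this gene makes its value uncertain. TPX2, the activator of AURKA on the spindle, differed by 0.30 (SE 0.13), from 7.12 to 6.84 in SK-N-MC, and from 7.54 to 7.22 in A673. KIF20A, a kinesin of the central spindle, differed by 0.27 (SE 0.13). These adjusted p-values lay between 0.586 and 0.791.

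CENPF, a kinetochore protein, had the lowest difference, at -0.25 (SE 0.14), with 7.02 and 7.35 in SK-N-MC, against 7.22 and 7.40 in A673 for siRNA 2 and siRNA 3. CKS2 (-0.15), KIF23 (-0.088), a kinesin of the midbody, and PRC1 (-0.079), which bundles midzone microtubules, followed. KIF23 and PRC1 turned sign when siRNA 2 of SK-N-MC was left out, KIF23 to 0.053 and PRC1 to 0.040. That fit also draws on the control arrays. The A673 siRNA arrays themselves differed by 0.050 for KIF23 and by -0.0081 for PRC1. PRC1 thus lay lower with siRNA 2 in both lines, at -0.15 in SK-N-MC, and its turn rests on the control arrays.

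Of the 38 genes, limma called 0 between the siRNAs, and 0% of all genes were called. MKI67, AURKB and KIF4A had an unadjusted p under 0.05, all 3 higher with siRNA 2, beside 3.06% of all genes on that side and 6.67% on either. The difference lay above 0 for 25 of 38 genes, beside 48.4% of all and 38.9% of bright genes. In both lines 15 of 38 genes (39.5%) lay higher with siRNA 2, beside 24.6% of all genes and 21.6% of bright genes. Another 5 (13.2%) lay lower in both, beside 26.3% and 34.1%. The median of the 38 genes was 0.069, where that of bright genes was -0.038. With single arrays left out it ranged from 0.031, without A673 siRNA 2, to 0.12, without SK-N-MC siRNA 2. It stood at 0.045 without SK-N-MC siRNA 3. These fits also draw on the control arrays. The siRNA 2 minus siRNA 3 differences of the 38 genes had a median of 0.057 in SK-N-MC and of 0.084 in A673. The interferon-induced genes differed between the siRNAs by a median of -0.97 in SK-N-MC and of -0.032 in A673, and their part in these values was not tested.

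MKI67, AURKB, TPX2 and CCNB2, cyclin B2, were the 4 genes (10.5%, beside 2.84% of all and 2.72% of bright genes) that lay above the control with siRNA 2 and below it with siRNA 3 in both lines. No gene of the set showed the opposite order in both lines, beside 3.52% of all genes. Per siRNA, 16 of 38 genes (42.1%, beside 23.2% of all and 21.9% of bright genes) lay above the control in both lines with siRNA 2, and 15 of 38 (39.5%, beside 26.5% and 26.0%) lay below it in both lines with siRNA 3. Each of these counts shares the control arrays with the others. Across the 38 genes the siRNA differences of the lines had a Pearson correlation of 0.138 and a Spearman correlation of 0.0051, a description over genes that share their arrays. Over all genes these were 0.066 and 0.047, and over bright genes 0.299 and 0.246. NEK2 and AURKA, at 0.60 and 0.44 in SK-N-MC, lay at -0.12 and 0.061 in A673, and CENPE, the kinetochore kinesin, lay at -0.24 and 0.38.

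**Figure D3:**
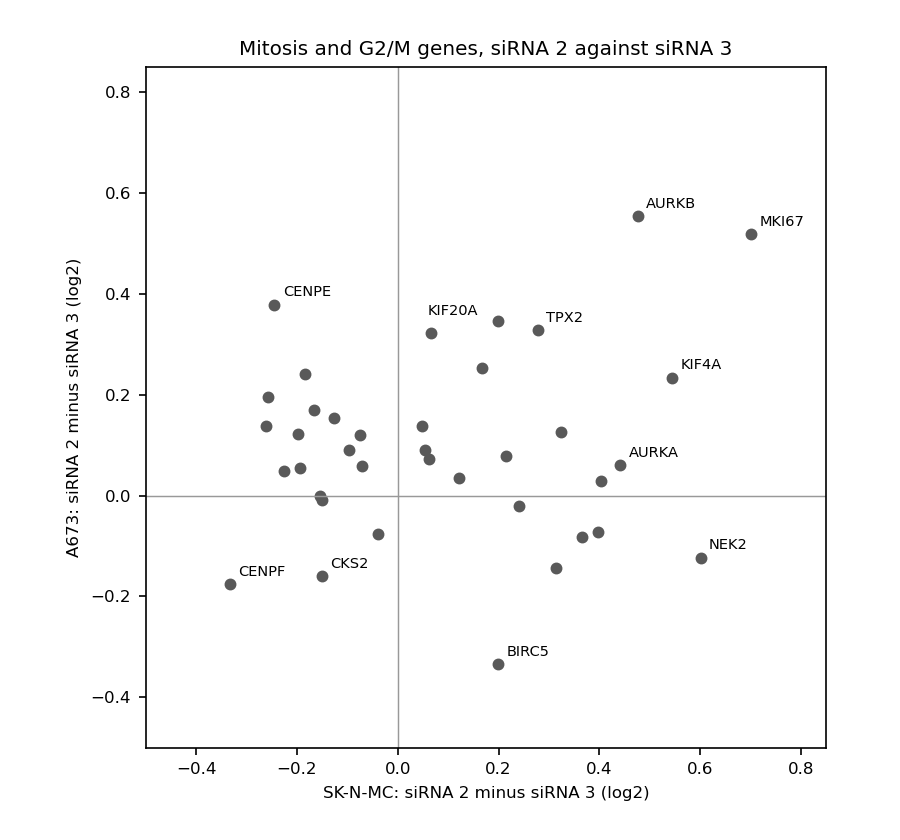
Log2 difference between the siRNA 2 and siRNA 3 arrays in SK-N-MC (horizontal) and A673 (vertical), 1 point per gene for 38 genes. MKI67 (0.70 and 0.52) and AURKB (0.48 and 0.55) lie farthest into the upper right, and 15 genes lie above 0 in both lines.

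The last comparison asks how the lines themselves differ. Mitotic genes stood mostly higher in A673: 14 of 38 were called higher there and 3 lower (limma, adjusted p under 0.05), beside 13.5% and 11.4% of all genes. Of the 38 genes 31 are bright. Among bright genes 23.0% and 17.4% were called, or 40.4% in either direction against 24.8% of all genes. Of the 31 members above that level 11 were called higher and 3 lower. The difference lay above 0 for 33 of 38 genes, beside 46.7% of all and 53.3% of bright genes. In all 3 matched pairs of arrays A673 lay above SK-N-MC for 28 genes, beside 25.8% of all, and below it for 3, beside 26.4%. The median difference of the 38 was 0.32, beside -0.017 over all genes and 0.034 over the bright genes. All A673 arrays lay above all SK-N-MC arrays for 24 genes (63.2%, beside 19.4% of all genes and 32.0% of the bright ones) and below them for 3 (7.89%, beside 18.5% and 26.3%). Of the 9 interferon-induced genes 7 were called lower in A673, with a median of -1.81, and their part in the line difference was not tested.

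UBE2C, the ubiquitin-conjugating enzyme of the anaphase-promoting complex, showed the largest difference. It lay at 5.72, 5.72 and 5.87 in the SK-N-MC arrays and at 7.03, 6.99 and 6.99 in A673, with no overlap. It was 2.35-fold higher in A673 (log2 difference 1.23, SE 0.11, adjusted p = 8.67e-05). MAD2L1, the checkpoint protein that restrains the same complex, was higher by 0.61 (SE 0.11), at 6.39 to 6.64 in A673 and 5.82 to 6.02 in SK-N-MC. PTTG1, the securin that the complex destroys, went the other way, with a difference of -0.51 (SE 0.13), at 6.23 to 6.38 in A673 and 6.58 to 7.06 in SK-N-MC. CDC20, which brings substrates to the complex, was not called, at 0.32 (SE 0.13).

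TOP2A was the gene farthest on the SK-N-MC side. Its SK-N-MC values of 7.65 to 7.93 all lay above the A673 values of 6.50 to 6.75. It was 2.31-fold lower in A673 (log2 difference -1.21, SE 0.13, adjusted p = 2.59e-04). MKI67, the other chromosome-bound marker commonly read together with TOP2A, lay 0.48 higher in A673 (SE 0.20) and was not called. The 2 genes thus stood on opposite sides of 0 between the lines. TTK, the checkpoint kinase MPS1, was the remaining gene higher in SK-N-MC, at -0.43 (SE 0.12).

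Among spindle and kinetochore genes, NUF2, a partner of NDC80 in the microtubule-binding complex, lay at 6.05 to 6.18 in SK-N-MC, against 6.91 to 7.22 in A673 (0.93, SE 0.12, 1.91-fold). NDC80 itself differed by only 0.041 (SE 0.11), with overlapping values of 5.01 to 5.22 and 5.07 to 5.21. The 2 subunits of 1 complex thus had unlike line differences in transcript level, a contrast that was not itself tested. PRC1 lay at 7.39 to 7.54 and 8.23 to 8.46 (0.90, SE 0.11), and HMMR at 3.52 to 3.80 and 4.41 to 4.61 (0.86, SE 0.10). CENPE (0.54, SE 0.14) and KIF11, the kinesin that separates spindle poles (0.52, SE 0.11), were also higher in A673. KIF20A, KIF23, KIF2C and KIF4A, the other kinesins of the set, stood between 0.13 and 0.35 and were not called.

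Of the 7 mitotic kinases, AURKB (0.89, SE 0.18) and NEK2 (0.83, SE 0.17) were higher in A673. AURKA did not differ by more than its error, at -0.010 (SE 0.16), and ranged from -0.18 to 0.15 with single arrays left out. BUB1B stood at 0.059 (SE 0.12). PLK1 (0.32, SE 0.12) and BUB1 (0.23, SE 0.10) were not called. The 2 Aurora kinases thus differed in their contrast between the lines, a difference that was not itself tested.

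Of the cyclin and CDK genes, CCNB2 (0.63, SE 0.12), CDK1 (0.42, SE 0.11) and CCNB1 (0.40, SE 0.11) were higher in A673. CCNA2 (0.14, SE 0.10) and CDC25B (0.17, SE 0.11), a phosphatase that starts CDK1 activation, were not called. FOXM1 was higher by 0.62 (SE 0.12), at 6.80 to 6.97 beside 6.10 to 6.41. ANLN was higher by 0.51 (SE 0.10), while ECT2, the activator of RhoA at the furrow (0.28, SE 0.12), and BIRC5 (0.24, SE 0.13) were not called. The adjusted p of the called genes lay between 8.67e-05 and 0.0297.

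With single arrays left out, 12 to 16 of the 38 genes were called, and 11 of the 17 kept their call in each case. CCNB1 lost it without any 1 of the 6 arrays (0.35 to 0.49), and CDK1 without any except SK-N-MC siRNA 2 (0.36 to 0.43). CENPE lost it without either control array or either siRNA 2 array (0.45 to 0.49), and TTK without either control array or either siRNA 3 array (-0.42 to -0.37). PTTG1 lost it without either siRNA 2 array or the A673 siRNA 3 array (-0.52 to -0.39), and NEK2 without either control array (0.74). AURKB lost its call with log2(intensity + 16), at 0.76.

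**Figure D4:**
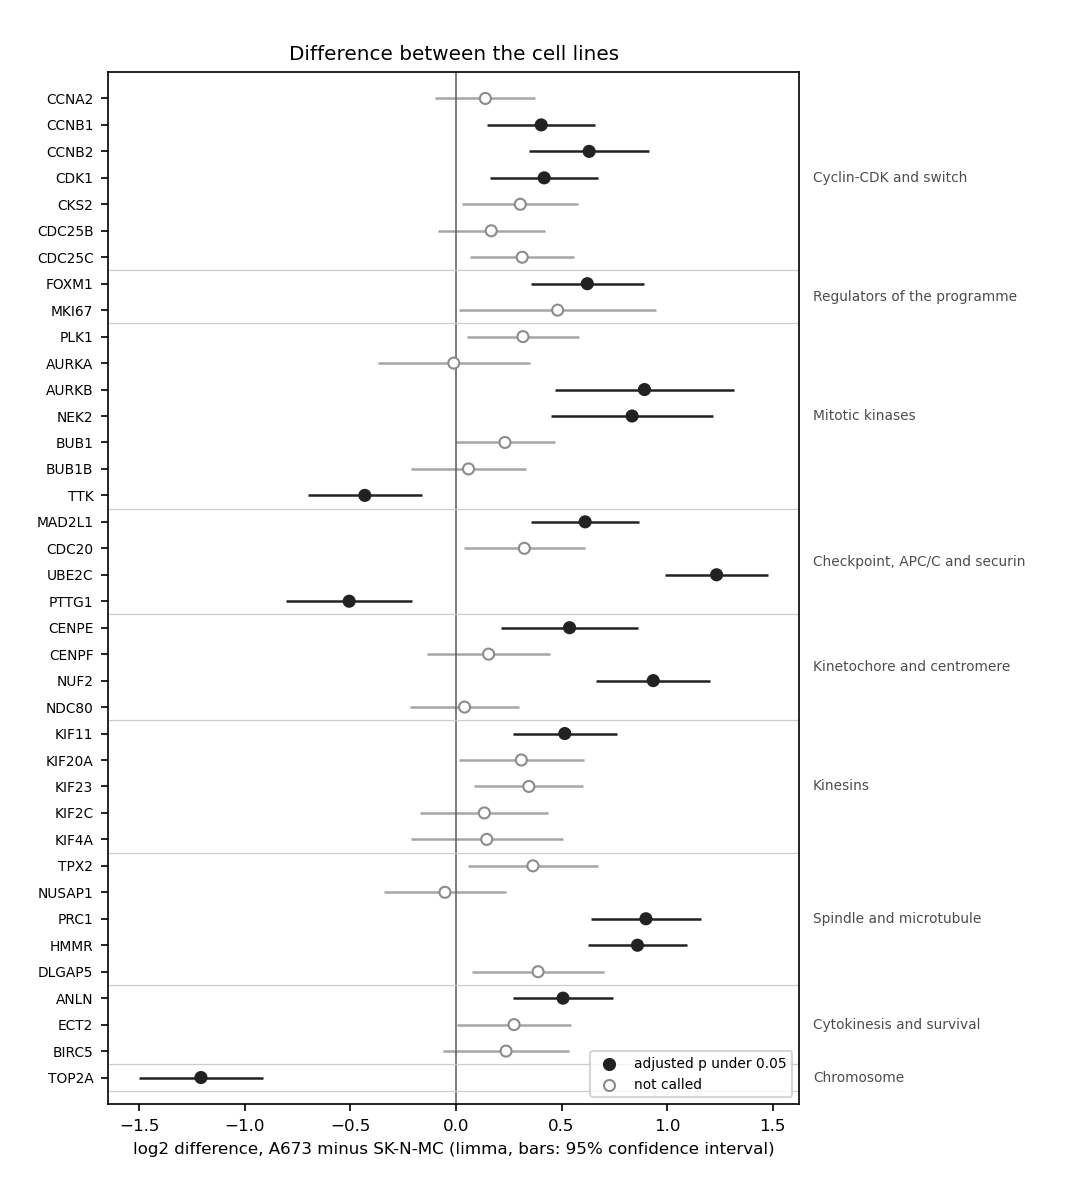
Log2 difference between A673 and SK-N-MC for 38 genes with the 95% confidence interval from limma, ordered by role (filled points, adjusted p under 0.05; open points, not called). UBE2C at 1.23 and TOP2A at -1.21 lie farthest from 0, and 14 of the 17 called genes lie on the A673 side.

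**Figure D5:**
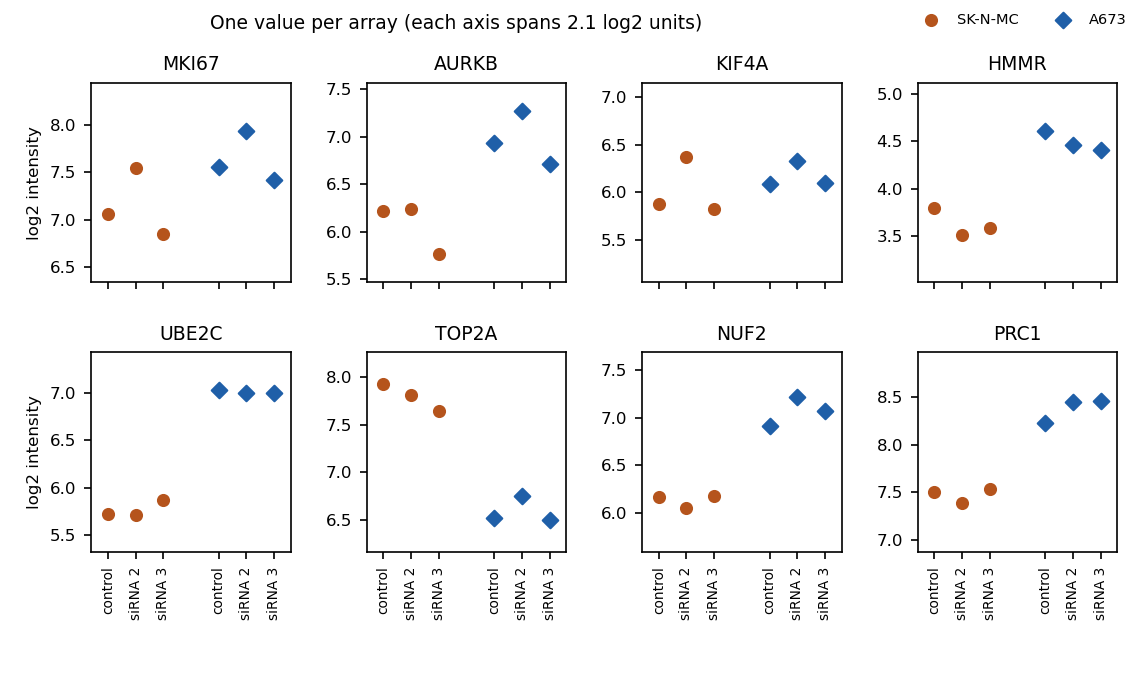
Log2 intensity in each of the 6 arrays for 8 genes (circles SK-N-MC, diamonds A673, 1 point per array, each axis 2.1 log2 units tall). MKI67 and KIF4A peak with siRNA 2 in both lines. AURKB does so in A673, while in SK-N-MC it lies only 0.023 above the control. HMMR, UBE2C, TOP2A, NUF2 and PRC1 separate the lines without overlap.

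Other genes of the same pathway, from lists fixed beside the set, were read in the same fits. Across both lines limma called 0 of the 129 measured genes of spindle, kinetochore, condensin, cytokinesis, anaphase-promoting complex, entry and MuvB lists, and 5 (3.88%) had an unadjusted p under 0.05, beside 4.63% of all genes. Their median was -0.047, and 45 of 129 (34.9%) lay above 0, beside 48.5% of all. CENPH, a subunit of the inner kinetochore, had the largest difference, at -0.78 (SE 0.20), with 4.26, 3.13 and 3.19 in SK-N-MC, against 4.29, 4.13 and 3.54 in A673. It lay below the control in 4 of 4 siRNA arrays. CENPC, another inner kinetochore protein, stood at 0.50 (SE 0.18), above the control in 4 of 4, and both had an adjusted p of 0.989.

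Between the siRNAs 0 of the 129 were called, and 12 (9.30%) had an unadjusted p under 0.05, 6 on each side, beside 6.67% of all genes. RACGAP1, the partner of KIF23 in centralspindlin, stood at 0.43 (SE 0.15), KIF14, a midbody kinesin, at 0.40 (SE 0.14) and CDC25A, a phosphatase of CDK2 and CDK1, at 0.52 (SE 0.15). CDK2 stood at -0.64 (SE 0.13), lower with siRNA 2 in both lines. The adjusted p of these 4 genes lay between 0.572 and 0.698.

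Between the lines 38 of the 129 (29.5%) were called higher in A673, beside 13.5% of all and 23.0% of bright genes. Another 18 (14.0%) were called lower there, beside 11.4% and 17.4%. Of the other kinesins and spindle genes 9 of 24 were higher in A673 and 3 lower, of kinetochore and checkpoint genes 10 of 29 and 3, and of cytokinesis genes 8 of 12 and 1. KIF18A, a kinesin that damps chromosome movement (1.75, SE 0.12), CHEK1, the G2 checkpoint kinase (1.59, SE 0.12), and NCAPG, a condensin subunit (1.33, SE 0.11), were higher in A673. Of MuvB, DREAM and E2F genes 3 of 19 were higher and 5 lower. Anaphase-promoting complex genes gave 3 of 17 higher and 3 lower, and condensin, cohesin and separase genes 3 of 17 and 2. Entry control genes gave 4 of 14 higher and 1 lower. The lists share some genes. The lists were not tested against each other, and each count is to be read beside the same 2 background shares. Of 28 measured G1/S and replication genes, 11 were higher in A673 and 6 lower. Their differences ran from -1.52 to 1.61, with a median of 0.26. On the lower side CCNE1 stood at -1.49 and CCNE2 at -1.52, both cyclins that start S phase. Of 6 measured growth arrest genes, GADD45A was higher in A673 by 0.88, and CDKN2A was lower there, at -3.83.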

How the data were processed

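Total RNA (200 ng a sample) was hybridised to 6 Affymetrix whole-transcript arrays. The deposited table holds linear intensities, and the submitters' processing notes name RMA and Expression Console 1.1. The step back from the log scale and any genome build are not given in the sources used here. Here log2 was taken with no further normalization. Of 33297 probe sets, 19460 carry 1 gene symbol, which gave 18417 genes, and the probe set with the highest mean was used for each. Tests used limma 3.58.1 in R 4.3.3 (two-sided, Benjamini-Hochberg over 18417 genes, threshold 0.05), with both siRNAs as replicates of silencing. Silencing and the line difference came from a fit with cell line and silencing terms, responses within lines from 4 group means, and the siRNA difference from a fit with a term per siRNA. As a check of the code, the fits were run on simulated data with independent noise and planted differences. The share recovered is not given, and that run does not show what these arrays can detect. The genes, the lists and the naming rule were chosen with earlier results of these data known. The rule gives array values for at most 12 called genes, for the 4 largest differences in each direction per comparison and for usual markers of the class; other values named were chosen after they were seen. Alternatives covered normalization, offset, dim genes, probe sets, variance model and single arrays.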

Additional observations from a re-analysis of the deposited data

How the results depend on the processing

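The counts of called genes stayed at 0 for silencing, for both within-line responses, for their difference and for the siRNA comparison under every alternative run. Between the lines 15 to 20 genes were called under the alternatives that keep all arrays, the most where the test was limited to mean log2 values of 6 or more, and 10 of the 17 were called under each of the 14 alternatives that tested them, HMMR being too dim for the one just named. A second quantile normalization moved the median of the 38 genes to 0.099 within SK-N-MC, -0.0012 for the difference of the responses, 0.11 between the siRNAs and 0.24 between the lines. With single arrays left out the median ranged from -0.034 to 0.024 within SK-N-MC, from 0.031 to 0.12 between the siRNAs and from 0.28 to 0.39 between the lines. Of the gene differences that the naming rule selected, 6 turned sign with 1 array left out. Across lines AURKA ranged from -0.46 to 0.024 and FOXM1 from -0.22 to 0.0079, both turning without the SK-N-MC control. These ends are the responses of SK-N-MC and of A673 alone, since the fit without a line's control cannot use that line. Within SK-N-MC NEK2 ranged from -0.071 to 0.53 and AURKB from -0.45 to 0.023. Between siRNAs KIF23 ranged from -0.23 to 0.053 and PRC1 from -0.20 to 0.040. For the siRNA comparison, the fits with an siRNA array left out also draw on the control arrays. Over all 38 genes, an alternative added after seeing the data, 20 turned sign across lines, 19 within SK-N-MC, 17 within A673, 16 in the difference of the responses, 23 between siRNAs and 5 between the lines. With the siRNA number as a replicate block, 19 genes were called between the lines. The number marks a treatment and not a shared culture. Between the lines, the siRNA 2 minus siRNA 3 differences had a Pearson correlation of 0.0663 across all genes and 0.299 across bright ones. The fit of silencing has no such block, since the number lies within silencing. With 1 control array per line and 2 or 3 residual degrees of freedom, differences under about 2-fold can be missed, and larger ones too. STEAP1 itself, at -2.18 across lines, was not called by limma (adjusted p 0.293).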
